A study of Mus musculus with 45 samples.

Results

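Foxp3, Ikzf2, Ikzf4, Tnfrsf18, Nrp1, Lrrc32 and Gpr83 are genes by which regulatory T cells are commonly recognized. They were taken by symbol from the deposited count table, and all 7 were found among its 55450 genes. The cells sequenced were sorted out of popliteal lymph nodes (dLN) that drain the site of a hind footpad injection of OVA with LPS in IFA in mice, and the 45 samples form 8 groups. On Day 6, TFH cells (TCRβ+ CD4+ PD1+ CXCR5+) and non-TFH cells (TCRβ+ CD4+ PD1- CXCR5-) were sorted, with 6 samples of each from WT and 6 from S1PR4-/- mice. On Day 9, GC B cells (B220+ GL7+ Fas+) were sorted, with 6 samples per genotype, and non-GC B cells (B220+ GL7- Fas-), with 5 WT and 4 S1PR4-/- samples. The S1PR4-/- mice carried a germline deletion (B6.129P2-S1pr4tm1Dgen/J, on a C57/BL6 background after at least 10 backcrosses), so every cell of the host lacked the receptor, and WT littermates served as controls. Animals of both sexes, 8 to 12 weeks old, were used. The gates held no antibody to Foxp3 or CD25, so regulatory cells were neither selected nor removed, and each sample is a bulk measurement of all cells in its gate. In such bulk samples, fewer cells of a type and less RNA per cell cannot be told apart.

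Regulatory T cells restrain other lymphocytes and depend on the transcription factor Foxp3 and on IL-2 signalling through STAT5. Some of them enter B cell follicles as follicular regulatory T cells, which carry CXCR5 and PD1 together with Foxp3 and temper the germinal center. A gate on CXCR5 and PD1 therefore takes in follicular regulatory cells along with helper cells, while the double-negative gate takes in other regulatory cells along with naive and other CD4+ T cells.

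In GENCODE M21 on mm10, the 7 genes are protein coding and lie on 7 different chromosomes. Foxp3 (ENSMUSG00000039521.13) spans chrX:7573644-7595245 on the plus strand, Ikzf2 (ENSMUSG00000025997.13) chr1:69531214-69687245 on the minus strand, and Ikzf4 (ENSMUSG00000002578.17) chr10:128630843-128645991 on the minus strand. Ikzf4 shares its chromosome with S1pr4, the deleted gene, at a distance of 47.1 Mb. Tnfrsf18 (ENSMUSG00000041954.18) spans chr4:156026164-156028895, Nrp1 (ENSMUSG00000025810.9) chr8:128358604-128503363, Lrrc32 (ENSMUSG00000090958.2) chr7:98489283-98502181 and Gpr83 (ENSMUSG00000031932.14) chr9:14860210-14870789, these 4 on the plus strand. Foxp3 overlaps Flicr on its own strand, and how reads were divided between them is uncertain. Flicr had mean levels of 1.10 to 3.84 counts per 1000000 counts of the library (CPM) over the 4 T cell groups. On the other strand Foxp3 overlaps Ppp1r3f, Gm36995 and Ccdc22. In WT TFH and non-TFH cells, mean levels were 33.7 and 73.1 CPM for Ccdc22 and 5.66 and 19.9 CPM for Ppp1r3f. Whether reads of these genes entered the Foxp3 counts was not tested.

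Promoter sequences from RefSeq (GRCm38.p6, 250 bases before to 50 after a transcription start) were found for Foxp3 (2 windows), Tnfrsf18, Nrp1 and Gpr83. They were searched on both strands for STAT5 (TTCNNNGAA), NFAT (GGAAAA), forkhead (TGTTTAC), RUNX (TGTGGT) and CRE (TGACGTCA) letters. The Nrp1 and Gpr83 windows and the other Foxp3 window held no STAT5 or NFAT match. Foxp3 and Tnfrsf18 each held a STAT5 match and an NFAT match, shown here with the matched letters in capitals. Every match is printed on the plus strand, the strand of both genes.
Foxp3 STAT5 match, chrX:7580334-7580362: gagctctgttTTCCAAGAAcgggcattag
Tnfrsf18 STAT5 match, chr4:156026213-156026241: tgctctacacTTCACAGAAggcctttaca
Foxp3 NFAT match, chrX:7580332-7580357: aagagctctgTTTTCCaagaacgggc
Tnfrsf18 NFAT match, chr4:156026116-156026141: atgggcatccTTTTCCtctgtagcct

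The NFAT letters run on the minus strand in both genes, and in Foxp3 the NFAT and STAT5 matches share bases. The Foxp3 windows lie in an intron of Foxp3 and an exon of Flicr, the Tnfrsf18 STAT5 window in an exon of Tnfrsf18 and the Tnfrsf18 NFAT window upstream of the gene. Of 32851 promoter windows of this length, 8.3% held the STAT5 letters and 23.4% the NFAT letters, so that a match describes the sequence and does not show a site in use. The forkhead letters (3.65% of windows), the RUNX letters (16.8%) and the CRE letters (1.79%) were in none of the windows of these genes.

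Each sample held between 26299429 and 45548215 expected counts, the estimated reads per gene. S1pr4 had 505 to 6305 counts in the WT samples and 0 to 40 in the S1PR4-/- samples. Cxcr5 and Pdcd1, the genes of the gate, had mean levels of 945 and 660 CPM in WT TFH cells and 16.1 and 18.9 CPM in WT non-TFH cells. The summed level of 12 B cell markers was 153 to 495 CPM in TFH samples and 11.3 to 54.0 CPM in non-TFH samples, against 8378 to 18180 CPM in B cells, and most of the TFH sum was Cd22. Marker sums of other cell types differed between the gates as well. In WT, median sums in TFH and non-TFH samples were 60.1 and 12.0 CPM for 6 macrophage and monocyte markers, 13.3 and 1.77 CPM for 6 dendritic cell markers and 66.2 and 29.0 CPM for 6 markers of CD8 T and NK cells, and 1 S1PR4-/- TFH sample had 437 CPM of the macrophage sum. Most of the CD8 T and NK sum in WT TFH cells was Klrb1c (mean 51.7 CPM). The CD8 gene Cd8b1 went the other way, with means of 11.8 CPM in WT TFH and 20.7 CPM in WT non-TFH cells. The part of these cells in the differences between the gates was not tested, and that of B cells was tested between genotypes by a covariate. Xist, transcribed from the inactive X chromosome of females, was over 1 CPM in 5 of 6 WT and 2 of 6 S1PR4-/- samples of either T cell gate, so that the sexes were unequally spread over the genotypes.

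Foxp3 transcripts were present in every sample of both T cell gates, at 72.2 CPM or more, and at most at 1.07 CPM in B cells. Per kilobase of merged exons, the order in WT TFH cells was Tnfrsf18 (148 ± 27.1 CPM per kb, SD, n = 6), Foxp3 (28.3 ± 7.45), Nrp1 (9.56 ± 0.583), Lrrc32 (4.22 ± 0.846), Ikzf2 (3.44 ± 0.280), Gpr83 (2.05 ± 0.474) and Ikzf4 (1.80 ± 0.478). In WT non-TFH cells it was Tnfrsf18 (134 ± 29.0 CPM per kb), Foxp3 (29.9 ± 7.41), Lrrc32 (14.6 ± 4.6), Gpr83 (13.4 ± 2.56), Nrp1 (4.71 ± 1.63), Ikzf4 (4.61 ± 1.24) and Ikzf2 (1.71 ± 0.695). Tnfrsf18 and Foxp3 therefore led in both gates, while the other 5 genes changed places. Neighbours whose samples overlapped were Lrrc32 and Ikzf2, and Gpr83 and Ikzf4, in TFH cells. In non-TFH cells they were Foxp3 and Lrrc32, Lrrc32 and Gpr83, Nrp1 and Ikzf4, and Ikzf4 and Ikzf2. In 21 B cell samples, Foxp3 had at most 28 counts, Ikzf2 17, Ikzf4 27 and Gpr83 9.

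**Figure D1:**
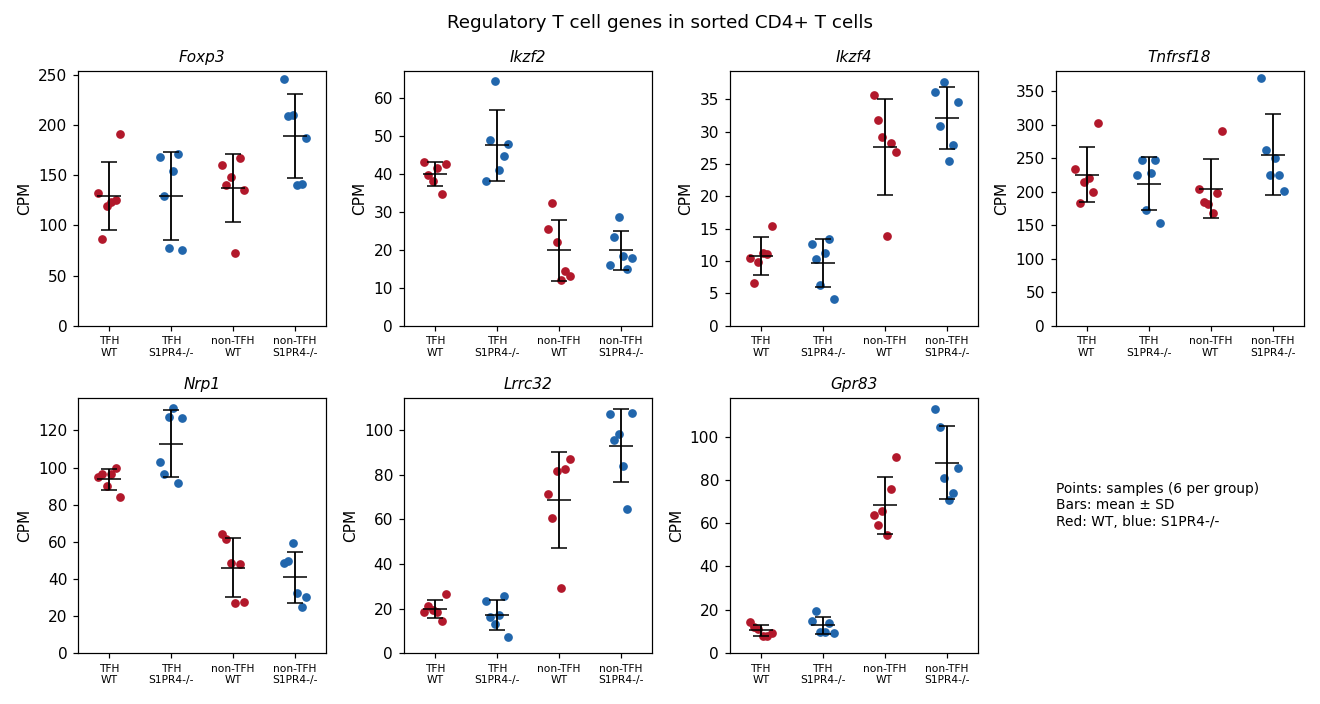
Level of each gene in CPM (vertical axis, linear, starting at 0) in the 4 groups of sorted CD4+ T cells, with 1 point per sample (6 per group) and the mean ± SD as bars. Foxp3 and Tnfrsf18 overlap over all 4 groups, Ikzf2 and Nrp1 lie higher in TFH than in non-TFH cells, and Ikzf4, Lrrc32 and Gpr83 lie lower in TFH cells.

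To see how the regulatory T cell genes were divided between the follicular and the non-follicular gate, WT TFH cells were compared with WT non-TFH cells. Foxp3 itself was at a like level in both, but other genes of the 7 were split, some higher and some lower. Which cells of a gate supplied these transcripts cannot be told from bulk samples. Ikzf2 and Nrp1 were about 2.01- and 2.03-fold higher in TFH cells, and Ikzf4, Lrrc32 and Gpr83 were 2.56-, 3.46- and 6.55-fold lower. Called here means an adjusted p (FDR) under 0.05 from edgeR's quasi-likelihood test and a fold change over 1.5. By this rule 5 of the 7 genes were called, 2 higher and 3 lower, where 43.2% of the 13481 genes tested were called. The median log2 fold change of the 7 genes was -0.08, against 0.00025 over all genes tested.

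Foxp3, the lineage factor, had a lowest, median and highest level of 86.4, 124 and 191 CPM in WT TFH samples and of 72.2, 144 and 167 CPM in WT non-TFH samples. The groups overlapped throughout. The log2 fold change was -0.08 (SE 0.19, adjusted p = 0.715, edgeR), with a 95% interval from -0.49 to 0.33. Ikzf2 encodes Helios, an Ikaros family factor of thymus-derived and activated regulatory cells. It ran over 34.6, 40.6 and 43.2 CPM in TFH samples and over 12.0, 18.3 and 32.2 CPM in non-TFH samples, and the groups did not overlap (log2 fold change 1.01, SE 0.21, adjusted p = 0.000581, edgeR). Ikzf4, which encodes Eos, an Ikaros family partner of Foxp3 in repression, went the other way. Its levels were 6.56, 10.8 and 15.5 CPM in TFH and 13.8, 28.8 and 35.7 CPM in non-TFH samples (log2 fold change -1.36, SE 0.21, adjusted p = 4.99e-05, edgeR). Its groups overlapped through non-TFH replicate 4, the lowest of that group and below the highest TFH sample.

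Among the surface molecules, Tnfrsf18 encodes GITR, a costimulatory receptor that regulatory cells hold at rest and other T cells gain on activation. It ran over 183, 218 and 302 CPM in TFH and over 168, 191 and 291 CPM in non-TFH samples. These ranges were nearly the same, and the log2 fold change was 0.14 (SE 0.14, adjusted p = 0.364, edgeR; 95% interval -0.15 to 0.43). Nrp1 encodes neuropilin-1, a receptor for semaphorins and VEGF. It ran over 83.9, 95.5 and 99.9 CPM in TFH samples, among the tightest of these ranges, and over 27.1, 48.3 and 64.0 CPM in non-TFH samples (log2 fold change 1.02, SE 0.19, adjusted p = 0.000213, edgeR). No TFH sample was as low as any non-TFH sample. With all 8 groups in 1 fit the adjusted p of Nrp1 was 0.0528 (edgeR). Lrrc32 encodes GARP, which holds latent TGF-β on the surface of regulatory cells, and ran over 14.6, 18.9 and 26.6 CPM in TFH and 29.2, 76.4 and 87.0 CPM in non-TFH samples. All TFH samples were lower (log2 fold change -1.79, SE 0.22, adjusted p = 4.09e-06, edgeR). Gpr83, a G protein-coupled receptor gene enriched in regulatory cells, had the largest difference of the 7 genes. It ran over 7.93, 10.2 and 14.1 CPM in TFH and 54.7, 64.7 and 90.4 CPM in non-TFH samples, again with no overlap (log2 fold change -2.71, SE 0.16, adjusted p = 1.96e-09, edgeR). WT non-TFH replicate 4 was the lowest of its group in all 7 genes. Without it 5 genes were called again, and the log2 fold change of Foxp3 was -0.21 (adjusted p = 0.222, edgeR). In all, 4 of the 7 genes had groups that did not overlap, against 48.5% of the genes tested.

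In non-TFH cells, the mean levels of Ikzf2 and Nrp1 were higher in replicates 1 to 3 than in replicates 4 to 6, which stand in separate stretches of the deposited columns. In WT, Ikzf2 was at 22.1 to 32.2 CPM in the former and 12.0 to 14.4 CPM in the latter, and Nrp1 at 48.6 to 64.0 and 27.1 to 48.0 CPM. Other genes and groups differed between these sets too. In S1PR4-/- non-TFH cells Foxp3 was at 209 to 245 CPM in the former and 140 to 187 CPM in the latter. In WT TFH cells Gpr83 was at 10.9 to 14.1 and 7.93 to 9.45 CPM, and Ikzf4 went the other way, at 6.56 to 10.5 and 11.1 to 15.5 CPM. What the replicate numbers stand for is not stated, and their part in the results was tested only by a term in the fit. Within replicates 1 to 3 the difference in mean log2 CPM between WT TFH and non-TFH cells was 0.62 for Ikzf2, and within replicates 4 to 6 it was 1.58. The mean of Nrp1 in WT was 93.8 CPM in TFH and 58.0 CPM in non-TFH cells in the former set and 93.4 and 34.2 CPM in the latter. Both genes were thus higher in TFH cells in either set, by different amounts. Ikzf4 was lower in TFH cells by 1.86 in the former set and by 0.81 in the latter, Lrrc32 by 1.84 and 1.62, and Gpr83 by 2.35 and 3.08. Foxp3 changed sign, with -0.43 and 0.28.

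The same division was seen in S1PR4-/- mice, whose samples are separate from the WT samples. Again 5 of 7 genes were called, 2 higher and 3 lower in TFH cells, where 43.4% of 13390 genes were called, and 5 had groups that did not overlap (48.5% of genes). Ikzf2 ran over 38.0, 46.4 and 64.5 CPM in TFH and 14.8, 18.2 and 28.6 CPM in non-TFH samples (log2 fold change 1.27, SE 0.17, adjusted p = 1.03e-05, edgeR). Nrp1 ran over 91.4, 115 and 132 CPM and over 24.7, 40.3 and 59.4 CPM (log2 fold change 1.48, SE 0.19, adjusted p = 9.29e-06, edgeR). For both genes every TFH sample was above every non-TFH sample. Ikzf4 ran over 4.21, 10.8 and 13.4 CPM in TFH and 25.5, 32.8 and 37.7 CPM in non-TFH samples (log2 fold change -1.71, SE 0.23, adjusted p = 1.29e-05, edgeR). Lrrc32 ran over 7.18, 16.5 and 25.7 CPM and over 64.9, 97.1 and 108 CPM (log2 fold change -2.43, SE 0.24, adjusted p = 7.28e-07, edgeR). Gpr83 ran over 9.20, 11.8 and 19.5 CPM and over 70.9, 83.2 and 113 CPM (log2 fold change -2.76, SE 0.19, adjusted p = 1.91e-08, edgeR). These 3 genes were lower in every TFH sample.

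Foxp3 in S1PR4-/- mice ran over 75.0, 142 and 171 CPM in TFH and 140.0, 198 and 245 CPM in non-TFH samples. The groups overlapped, and the log2 fold change was -0.53 (SE 0.21, adjusted p = 0.0388, edgeR), a 1.44-fold difference that did not reach the fold threshold. It passed both thresholds without non-TFH replicate 4 (-0.61) or 5 (-0.61) or TFH replicate 1 (-0.63), 4 (-0.60) or 5 (-0.64), and also with scaling by total counts (-0.61). Its adjusted p over the alternatives ran from 0.0139 to 0.0856, the latter with all 8 groups in 1 fit. Tnfrsf18 ran over 153, 226 and 247 CPM in TFH and 201, 238 and 370 CPM in non-TFH samples, which overlap, and its log2 fold change was -0.25 (95% interval -0.57 to 0.06, adjusted p = 0.137, edgeR).

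**Figure D2:**
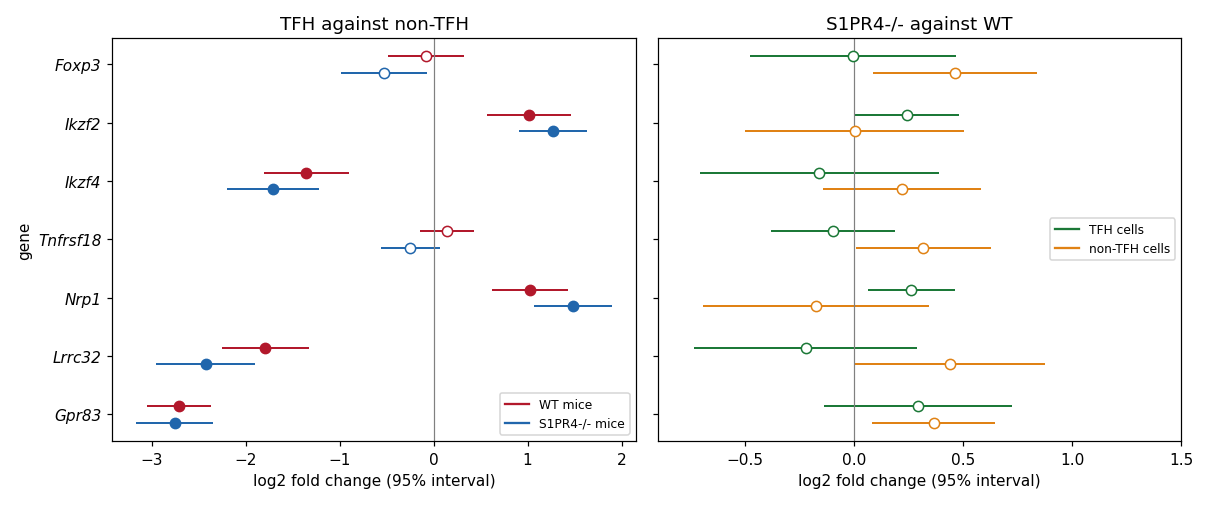
Log2 fold change (horizontal axis) of each gene with its 95% interval from edgeR's quasi-likelihood test, for TFH against non-TFH cells in WT and S1PR4-/- mice (left) and for S1PR4-/- against WT mice in TFH and non-TFH cells (right, on a narrower scale). Filled points are called and open points are not. In either genotype Ikzf2 and Nrp1 are higher and Ikzf4, Lrrc32 and Gpr83 lower in TFH cells, and no point on the right is filled.

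To ask whether loss of S1PR4 altered these genes, S1PR4-/- samples were compared with WT samples in each gate. These comparisons use the same samples as the ones above, so their values are not independent of them. In TFH cells 0 of 7 genes were called by edgeR's quasi-likelihood test, where 0.496% of 13495 genes were called. At an unadjusted p under 0.05, 2 of the 7 genes passed, against 19.2% of all genes. By DESeq2 and limma voom 0 of 7 were called as well. No gene of the 7 had groups that did not overlap (0 of 7, against 1.88% of all genes). Foxp3 had a log2 fold change of -0.01 (SE 0.22, adjusted p = 0.992, edgeR), with a 95% interval from -0.48 to 0.47, which covers differences of that size in either direction. The 2 genes under 0.05 before adjustment were Ikzf2 (log2 fold change 0.24, 95% interval 0.0040 to 0.48, adjusted p = 0.254, edgeR) and Nrp1 (0.26, interval 0.07 to 0.46, adjusted p = 0.139, edgeR). The genotypes overlapped for each of them. Ikzf4 (-0.16), Tnfrsf18 (-0.10), Lrrc32 (-0.22) and Gpr83 (0.29) had log2 fold changes with intervals that spanned 0. The lowest Foxp3 levels in S1PR4-/- TFH cells, 75.0 and 77.9 CPM, came from replicates 6 and 3, and Ikzf4 was lowest in these samples too, at 4.21 and 6.32 CPM.

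In non-TFH cells 0 of 7 genes were called by edgeR, where 0.114% of 13197 genes were called. Before adjustment 4 of the 7 genes had a p under 0.05, against 11.3% of all genes, and 6 of the 7 were higher in S1PR4-/- samples. Their median log2 fold change was 0.32, and that of all genes tested was 0.0041. The 4 genes were Foxp3 (log2 fold change 0.46, 95% interval 0.08 to 0.84, adjusted p = 0.34, edgeR), Tnfrsf18 (0.32, interval 0.01 to 0.63, adjusted p = 0.431), Lrrc32 (0.44, interval 0.0041 to 0.87, adjusted p = 0.438) and Gpr83 (0.37, interval 0.08 to 0.65, adjusted p = 0.299). None of them passed the adjustment over all genes. They were measured in the same samples and are not independent of each other. Within replicates 1 to 3 and within 4 to 6, Gpr83 differed in mean log2 CPM by 0.65 and 0.085, and Tnfrsf18 by 0.56 and 0.07. Foxp3 differed by 0.57 and 0.39 and Lrrc32 by 0.51 and 0.50. Groups did not overlap in 0 of 7 genes, against 1.17% of all genes. Ikzf4 was at 0.22 (interval -0.14 to 0.58), Ikzf2 at 0.0037 (-0.50 to 0.51) and Nrp1 at -0.18 (-0.69 to 0.34). With the log2 level of Xist as a covariate, Foxp3 was at 0.25 (adjusted p = 0.878, edgeR), Lrrc32 at 0.27 and Gpr83 at 0.24. Without WT non-TFH replicate 4, the lowest of its group in all 7 genes, Foxp3 was at 0.33 (adjusted p = 0.481, edgeR) and Lrrc32 at 0.28. The summed B cell markers were 14.3 to 54.0 CPM in WT and 11.3 to 23.7 CPM in S1PR4-/- non-TFH samples. With their mean log2 CPM as a covariate Foxp3 was at 0.19, Nrp1 at -0.90 (adjusted p = 0.385, edgeR) and Ikzf2 at -0.67 (adjusted p = 0.49, edgeR). In TFH cells, where these markers were at 167 to 495 CPM in WT and 153 to 294 CPM in S1PR4-/- samples, the same covariate put Foxp3 at -0.54 (adjusted p = 0.379, edgeR) and Ikzf4 at -0.70 (adjusted p = 0.359, edgeR).

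Whether the effect of genotype differed between the gates was tested by an interaction term over the 24 T cell samples. By this term 0 of 7 genes passed an FDR of 0.05 in edgeR, where 0.0139% of 14401 genes did. Before adjustment 0 of the 7 genes had a p under 0.05, against 9.2% of all genes, and 0 of 7 were called by DESeq2 or limma voom. The 2 lowest adjusted values were those of Lrrc32 (interaction -0.66, SE 0.34, adjusted p = 0.57, edgeR) and Tnfrsf18 (-0.42, SE 0.22, adjusted p = 0.573, edgeR). The interval of the Foxp3 term ran from -1.11 to 0.17 on the log2 scale.

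The other genes were also expressed per 100 Foxp3 counts of the same sample, a ratio of counts that depends on gene length and is compared only within a gene. In WT mice Ikzf4 stood at 7.60 to 9.14 counts per 100 Foxp3 counts in TFH samples and 17.0 to 22.7 in non-TFH samples. On this scale the gates did not overlap for Ikzf4, and non-TFH replicate 4, which was low in both Ikzf4 and Foxp3, lay within its group. Lrrc32 stood at 11.7 to 24.6 and 40.4 to 64.5, and Gpr83 at 4.95 to 13.9 and 39.8 to 75.7, so that each was lower in every TFH sample. Nrp1 was higher in every TFH sample, at 43.9 to 112 against 20.4 to 43.7. Ikzf2 (22.4 to 46.1 against 8.65 to 23.0) and Tnfrsf18 (158 to 212 against 119 to 233) overlapped. In S1PR4-/- mice the same 3 genes were lower and Nrp1 was higher with no overlap, and Ikzf2 did not overlap either, at 22.6 to 82.8 against 6.51 to 13.6. For S1PR4-/- against WT, all 6 ratios overlapped in TFH cells and all 6 in non-TFH cells. In the TFH gate the ratio of Ikzf4 varied least for its size, with a mean of 8.33 ± 0.582 in WT and 7.38 ± 0.914 in S1PR4-/- TFH samples (SD, n = 6).

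**Figure D3:**
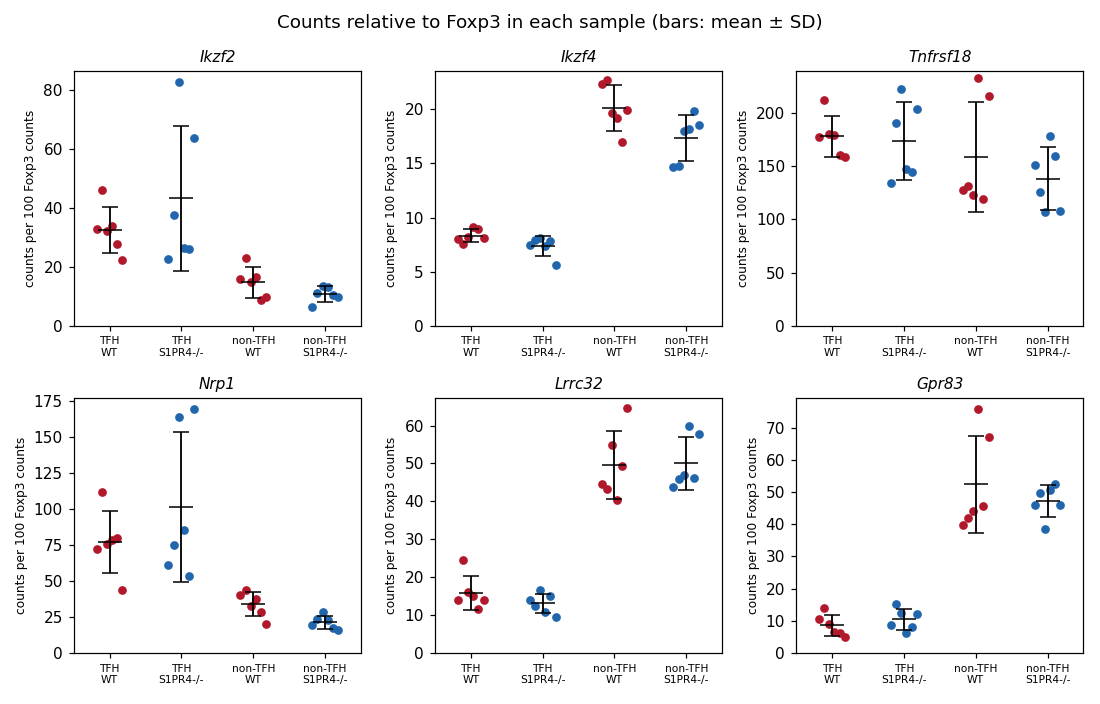
Counts of each gene per 100 Foxp3 counts of the same sample (vertical axis, linear, starting at 0) in the 4 T cell groups, with 1 point per sample and the mean ± SD as bars. Ikzf4, Lrrc32 and Gpr83 lie lower in TFH than in non-TFH samples without overlap in either genotype. The 2 S1PR4-/- TFH samples with the lowest Foxp3 have the highest ratios of Ikzf2 and Nrp1 in their group, where a low Foxp3 count by itself raises the ratio.

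To see which genes followed Foxp3 from sample to sample, the group means were taken off the log2 levels and each gene was correlated with Foxp3 over the 24 T cell samples. These correlations describe samples that share libraries between genes. They carry no test. Of 11652 genes with a mean of at least 1 CPM, Ikzf4 was the most like Foxp3 (Pearson r 0.94, Spearman rho 0.89), while the median r was 0.03 and 5% of genes were above 0.54. Next came Tnfrsf9, which encodes 4-1BB (r 0.89), Il2ra, the CD25 chain of the IL-2 receptor (0.88), Lamc1, a laminin chain (0.88), Cish, a STAT5-induced inhibitor of cytokine signalling (0.87), Pde8a, a phosphodiesterase (0.86), Ccr8, a chemokine receptor of effector regulatory cells (0.85), Prep (0.85), Havcr2, which encodes TIM-3 (0.85), and Ermn (0.84). Lrrc32 ranked 15 (r 0.82) and Tnfrsf18 141 (0.67). Gpr83 (rank 1366, r 0.42), Nrp1 (rank 2455, 0.30) and Ikzf2 (rank 4667, 0.12) followed Foxp3 less.

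The members parted further when the gates were taken separately. Over the 12 TFH samples, r with Foxp3 was 0.97 for Ikzf4, 0.92 for Tnfrsf18 and 0.77 for Lrrc32, but 0.29 for Gpr83, -0.50 for Ikzf2 and -0.61 for Nrp1. Over the 12 non-TFH samples it was 0.90 for Ikzf4, 0.88 for Lrrc32, 0.74 for Nrp1, 0.65 for Gpr83, 0.46 for Ikzf2 and 0.41 for Tnfrsf18. In either gate 5% of all genes were above 0.69, and Gpr83 was below that in both. Nrp1 thus ran against Foxp3 in the TFH gate and with it in the non-TFH gate, and Tnfrsf18 followed it closely in the TFH gate alone, and neither difference was tested. The 2 samples farthest from the median Foxp3 level were left out next. In TFH cells, without S1PR4-/- replicates 3 and 6, r stayed at 0.98 for Ikzf4 and 0.87 for Tnfrsf18. It was 0.63 for Lrrc32, -0.40 for Nrp1, -0.20 for Ikzf2 and -0.10 for Gpr83. In non-TFH cells, without WT and S1PR4-/- replicates 4, r was 0.63 for Ikzf4, 0.69 for Lrrc32 and 0.71 for Nrp1. For Gpr83, Tnfrsf18 and Ikzf2 it was 0.48, 0.36 and 0.21. With the means of replicates 1 to 3 and of 4 to 6 taken off separately, a choice made after seeing the data, r in non-TFH cells was 0.54 for Nrp1, 0.07 for Ikzf2 and 0.94 for Ikzf4. In TFH cells it was -0.67 for Nrp1, 0.67 for Gpr83 and 0.93 for Tnfrsf18, so that Nrp1 and Ikzf2 in non-TFH cells and Gpr83 in TFH cells depended on the sets.

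**Figure D4:**
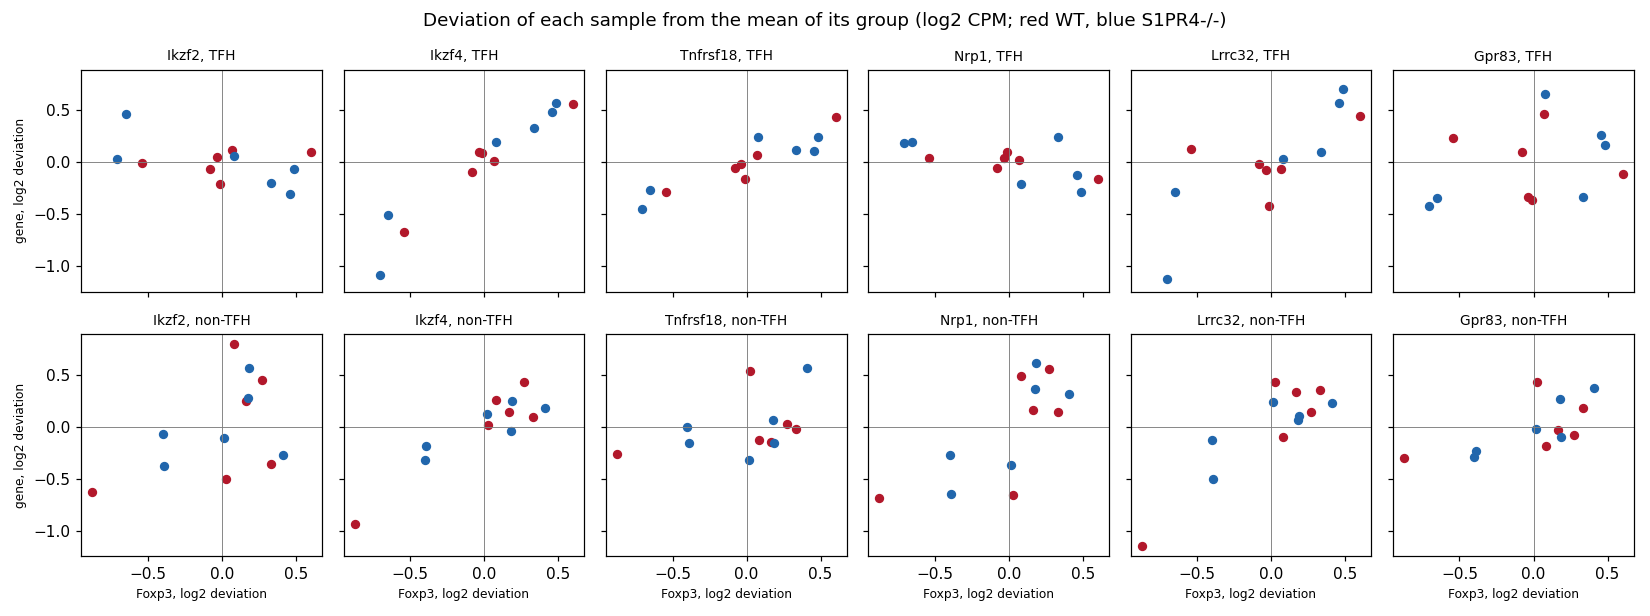
Deviation of each sample from its group mean in log2 CPM, for Foxp3 (horizontal axis) against each other gene (vertical axis), in TFH samples (upper row) and non-TFH samples (lower row), WT in red and S1PR4-/- in blue. Ikzf4 lies along a rising line in both gates, Tnfrsf18 in the TFH gate, and Nrp1 falls with Foxp3 in TFH samples and rises with it in non-TFH samples.

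Related genes were counted in 9 lists, 103 genes in all, of which 99 were tested in TFH against non-TFH cells of WT mice. There 49 were higher and 20 lower in TFH cells, where 22.8% of all genes were higher and 20.4% lower. In S1PR4-/- mice 45 were higher (22.3% of all genes) and 20 lower (21.1%). The lists share genes, such as Tigit and Tnfrsf4, and were not tested as sets.

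Genes of the follicular program were called higher in 11 of 12 cases in WT, where 22.8% of all genes were. Of this list, Cxcr5 and Pdcd1 encode the proteins on which the gate was set. Il21, the cytokine of helper cells, was at 135 ± 18.2 CPM in TFH and 0.920 ± 0.494 CPM in non-TFH cells (SD, n = 6). Among suppressive molecules 9 of 11 tested were higher (22.8% of all genes) and 0 lower (20.4%). Tigit, an inhibitory receptor, was at 117 ± 17.9 and 2.68 ± 1.73 CPM (log2 fold change 5.45, adjusted p = 2.24e-09, edgeR), and Lag3, which binds MHC class II, was 15.5-fold higher (adjusted p = 2.18e-06, edgeR). Il10 (1.57 ± 0.766 and 0.163 ± 0.0778 CPM) and Ebi3 (19.5 ± 2.58 and 3.07 ± 1.08 CPM), genes of inhibitory cytokines, were higher as well. Of 24 other markers of regulatory and effector regulatory cells, 17 were higher (22.8% of all genes) and 0 lower (20.4%). These included the chemokine receptors Cxcr3 (203 ± 25.6 and 22.3 ± 7.27 CPM), Ccr4 (81.0 ± 14.4 and 11.9 ± 6.53 CPM) and Ccr6 (41.1 ± 7.16 and 6.13 ± 2.13 CPM). Many of these genes, such as Tigit, Icos and Ctla4, are also expressed by helper cells, so that they mark no lineage in this gate.

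Of 17 partners and regulators of Foxp3, 3 were higher (22.8% of all genes) and 7 lower (20.4%) in WT TFH cells. Bach2, a repressor that keeps T cells in a resting state, fell from 143 ± 9.95 CPM in non-TFH to 11.7 ± 2.92 CPM in TFH cells (log2 fold change -3.61, adjusted p = 6.29e-11, edgeR). Lef1 (324 ± 34.7 in TFH and 1074 ± 93.0 CPM in non-TFH cells) and Foxp1 (94.8 ± 11.6 and 298 ± 23.3 CPM), factors of naive T cells, and Satb1 (544 ± 82.4 and 1330.3 ± 79.9 CPM), a chromatin organizer, were lower too. Nfatc2, a partner of Foxp3 in transcription, was higher (157 ± 17.1 and 60.5 ± 18.5 CPM). In the GARP and TGF-β list, which goes with Lrrc32, 4 of 14 were higher (22.8% of all genes) and 7 lower (20.4%). Tgfb3 was 28.6-fold higher in TFH cells (52.1 ± 9.35 and 1.82 ± 0.817 CPM, adjusted p = 2.61e-09, edgeR), and the inhibitor Smad7 was 13.4-fold lower (6.06 ± 0.929 and 81.4 ± 12.0 CPM, adjusted p = 2.05e-11, edgeR). The integrin Itgb8, which frees TGF-β from its latent form, was at 2.25 ± 0.666 and 0.920 ± 0.380 CPM and higher.

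In the IL-2 list 3 of 10 genes were higher (22.8% of all genes) and 4 lower (20.4%) in WT TFH cells. Il2rb, the β chain, was higher (663 ± 43.3 and 259 ± 75.7 CPM), and Il2rg, the shared γ chain, lower (1258 ± 88.1 and 2047 ± 349 CPM). In the list of GITR ligand and TNF receptor relatives 4 of 9 were higher and 1 lower, against the same shares of all genes. Tnfrsf4, which encodes OX40, stood at 302 ± 71.8 and 107 ± 39.7 CPM (adjusted p = 4.35e-05, edgeR), and Tnfrsf9 was 4.34-fold higher (adjusted p = 2.84e-06, edgeR), while Tnfrsf18 itself did not pass. Among neuropilin relatives and ligands 3 of 7 were higher and 1 lower, again against 22.8% and 20.4% of all genes. Nrp2 was higher at a low level (2.74 ± 0.669 and 0.963 ± 0.430 CPM), and Sema4a, a semaphorin that binds neuropilin-1, was lower (85.4 ± 9.17 and 260 ± 43.0 CPM). Of the Ikaros relatives, Ikzf3, which encodes Aiolos, was higher in TFH cells (216 ± 27.9 and 54.9 ± 9.68 CPM, 3.93-fold, adjusted p = 3.85e-09, edgeR), as was Ikzf2, and Ikzf1 and Ikzf5 were not called.

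Between genotypes, 1 of 99 related genes tested was called in TFH cells, where 0.496% of all genes were, and 1 of 96 in non-TFH cells, where 0.114% were. A single call among about 100 genes is a description of those genes and says nothing of the lists. Tnfrsf25, the death receptor DR3 that costimulates regulatory cells, was lower in S1PR4-/- TFH cells, at 27.6 ± 7.70 against 54.7 ± 12.7 CPM (log2 fold change -0.99, SE 0.19, adjusted p = 0.0278, edgeR). Cish was higher in S1PR4-/- non-TFH cells, at 61.9 ± 9.92 against 29.7 ± 9.87 CPM (log2 fold change 1.06, SE 0.20, adjusted p = 0.0381, edgeR). It ran from 52.9 to 77.8 CPM in S1PR4-/- and from 14.1 to 39.5 CPM in WT samples, with no overlap. Neither call was followed through the alternative methods. Under these the number of all genes called ran from 14 to 191 in TFH cells and from 9 to 56 in non-TFH cells. By the interaction term 0 of 99 were called by edgeR, where 0.0139% of all genes were.

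In B cells, where these genes mark no lineage, 3 of the 7 genes had enough counts for the WT comparison, and all 3 were called (47.8% of 13324 genes). Lrrc32 had too few counts for a test within non-GC B cells and entered this comparison through GC B cells, where it is high. Its call and its lack of overlap thus follow in part from the filter on low counts. Lrrc32 was present in every GC B sample, at a lowest, median and highest level of 18.9, 23.7 and 34.6 CPM in WT. The 5 WT non-GC B samples had 0.48, 0.16, 0, 0 and 1.24 CPM, far below (log2 fold change 6.14, SE 0.72, adjusted p = 8.7e-06, edgeR). Per kilobase, WT GC B cells held 5.26 ± 1.24 CPM per kb of Lrrc32, a range of 4.03 to 7.37 that overlapped WT TFH cells at 3.11 to 5.67. The summed level of 12 T cell markers was 133 to 170 CPM in these GC B cells, against 9506 to 11435 CPM in WT TFH cells. Most of the GC B sum was Lck (mean 115 CPM) and Cd28 (22.2 CPM), while Cd3e was at 0.219 ± 0.351 CPM. Whether T cells supplied any of the Lrrc32 transcripts was not tested. Tnfrsf18 went the other way, at 5.73, 8.32 and 21.8 CPM in WT GC B cells and 30.2, 34.2, 26.0, 35.8 and 30.3 CPM in the 5 WT non-GC B samples, which did not overlap (log2 fold change -1.49, SE 0.31, adjusted p = 0.000931, edgeR). Groups did not overlap in 2 of these 3 genes, Lrrc32 among them, against 50.8% of the genes tested. Nrp1 ran over 1.32, 3.33 and 5.94 CPM in WT GC B cells, and the non-GC B samples had 0, 0.89, 0.11, 1.28 and 1.78 CPM, so the groups overlapped (log2 fold change 2.19, SE 0.80, adjusted p = 0.0271, edgeR). Without WT GC B replicate 1 or 2 the adjusted p of Nrp1 was 0.0536 or 0.0537.

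Loss of S1PR4 gave no call in B cells. In GC B cells 0 of 3 genes tested were called by edgeR (0.0612% of 13070 genes) and 0 had an unadjusted p under 0.05 (4.13% of genes), and in non-GC B cells 0 of 2 (0.0537% of 13038 genes), again with 0 under 0.05 (4.55%). DESeq2 and limma voom called 0 as well. Lrrc32 ran over 23.3, 26.4 and 36.6 CPM in S1PR4-/- GC B cells, which overlaps WT (log2 fold change 0.16, 95% interval -0.17 to 0.48). Nrp1 spread from 0.89 to 19.1 CPM in these samples, and its interval ran from -0.41 to 2.49. Tnfrsf18 was at 7.33 ± 2.03 CPM (SD, n = 6), with an interval from -1.23 to 0.16. Tnfrsf18 was at 29.4, 38.7, 33.6 and 32.5 CPM in the 4 non-GC B samples of S1PR4-/- mice, which overlaps WT (log2 fold change 0.10, interval -0.14 to 0.35).

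**Figure D5:**
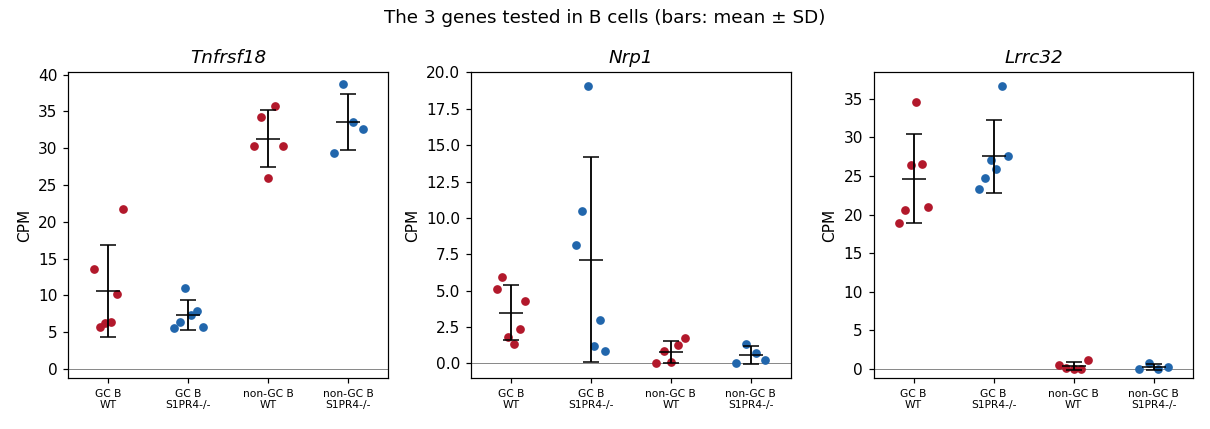
Level in CPM (vertical axis, linear) of the 3 genes tested in B cells, in GC B cells (6 samples per genotype) and non-GC B cells (5 WT, 4 S1PR4-/-), with 1 point per sample and the mean ± SD as bars. Lrrc32 is at 18.9 CPM or more in every GC B sample and at 1.24 CPM or less in every non-GC B sample, and Tnfrsf18 is higher in every non-GC B sample.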

How the data were processed

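Each of the 45 samples gave a column of expected counts, estimated by the authors with RSEM 1.3.0 from reads trimmed with Cutadapt 2.10 and aligned with STAR 2.5.3 to mm10, and deposited without normalization. Of the values, 8.83% were not whole, and all were rounded before tests. The methods name GENCODE M30, but the table has the 55450 genes of M21, which was used for positions and lengths (27 symbols did not match, and 111 repeats of a symbol were kept apart). The deposited table was given samples by its column names, with 0 columns unmapped. The study's own test was DESeq2.

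Here edgeR 4.0.16 in R 4.3.3 was the main test (TMM, filterByExpr, quasi-likelihood, Benjamini-Hochberg over all genes tested), on the groups of each comparison only. Called means FDR under 0.05 and a fold over 1.5, or for the interaction FDR under 0.05. Intervals are 95% and fold changes are edgeR's. CPM used TMM over all samples, and for correlations it was put on the log2 scale after adding a prior count (2). Alternatives were other scalings, no filter, DESeq2 1.42.0, limma 3.58.1 voom, FDR alone, the replicate number as a block, all groups in 1 fit, covariates for Xist and B cell markers, leaving out each sample and, chosen after seeing the data, a term for replicates 1 to 3 against 4 to 6 and correlations within these sets.

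The 7 genes and the related lists were chosen with earlier results of these data known. Named were the 7 genes, S1pr4, up to 5 called genes per list and comparison with the largest change and at least 1 CPM in either group, and the 10 genes most like Foxp3. Examples in the text come from these, of which 1 gene is not reported here, and B and T cell markers served as checks. The methods state 6 mice per genotype, but the labels do not tie samples to animals, so p-values measure the spread between these samples, which may in part be technical. Code was tested on simulated data. Protein sequences were not used here.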

Additional observations from a re-analysis of the deposited data

Results flagged for a closer look

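In 36 groups of 4 to 6 samples, the highest or lowest sample was set against the rest of its group by Dixon's ratio of its gap to the range, and 4 samples passed the 95% critical value (0.625 for 6 samples). Chance flags about 1 in 20 groups. Foxp3 was at 72.2 CPM in WT non-TFH replicate 4, with the nearest sample at 135 CPM (ratio 0.663), and this sample was the lowest of its group in all 7 genes. Tnfrsf18 was at 370 CPM in S1PR4-/- non-TFH replicate 1, with the nearest at 263 CPM (0.636), and at 291 CPM in WT non-TFH replicate 6, with the nearest at 205 CPM (0.706). Lrrc32 was at 36.6 CPM in S1PR4-/- GC B replicate 5, with the nearest at 27.5 CPM (0.686). Of 7 interaction tests between the T cell gates, 0 passed.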

How the results depend on the processing

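Over the alternatives, 992 fold changes of the 7 genes kept their direction and their side of the threshold, 24 turned, 7 newly passed the threshold and 4 no longer passed it. Foxp3 between genotypes in TFH cells (-0.01) was 8.55e-05 with DESeq2 size factors, 0.00169 with all 8 groups in 1 fit, 0.15 with Xist, 0.00553 with the term for replicates 1 to 3, and -0.11 to 0.14 leaving out 1 sample. Leaving out 1 sample also put Foxp3 in WT TFH against non-TFH cells at -0.22 to 0.0128, Tnfrsf18 between genotypes in TFH cells at -0.15 to 0.00129, Ikzf2 between genotypes in non-TFH cells at -0.13 to 0.19, the Gpr83 interaction at -0.23 to 0.0448 and Nrp1 between genotypes in non-GC B cells at -1.32 to 0.0410. Between genotypes in non-TFH cells, Ikzf2 was -0.12 with Xist and -0.67 with B cell markers, and Ikzf4 was -0.0634 with B cell markers. With all 8 groups in 1 fit all 7 genes were tested in WT GC B against non-GC B cells and 5 were called, against 3 of 3, since more genes passed the filter. In other cases the cause was not tested.

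Same-numbered TFH and non-TFH samples deviated together with correlations of 0.04 to 0.20 in WT (2 of 6 over 0.1) and 0.08 to 0.16 in S1PR4-/- mice (3 of 6), and 4 and 5 of 6 samples correlated best with their own number. All 6 pairs of either genotype shared their Xist call (over 1 CPM or not). These are hints of a shared animal, but not every correlation was over 0.1 and the labels do not state a pairing, so the fit without the block was kept. With the replicate block 5 and 5 of 7 genes were called between the T cell gates and 0 between genotypes. In non-GC B cells Nrp1 between genotypes was 0.31, and in WT GC B cells its adjusted p was 0.0632 (edgeR).

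Counts over all genes depended on the method. Between genotypes 67 genes were called in TFH cells (14 with B cell markers, 191 by DESeq2, and from 15 without S1PR4-/- replicate 1 or WT replicate 2 or 5 to 117 without S1PR4-/- replicate 3), 15 in non-TFH cells (9 with Xist, 56 by DESeq2, 27 without WT replicate 6), 2 by the interaction (0 to 6 leaving out 1 sample, 76 by DESeq2), 8 in GC B cells (14 by DESeq2) and 7 in non-GC B cells (25 with all 8 groups). With FDR alone, 9262 genes were called in WT and 9468 in S1PR4-/- TFH against non-TFH cells, against 5824 and 5809. In B cells, Foxp3, Ikzf2, Ikzf4 and Gpr83 had too few counts to be tested on the groups of each comparison only.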

Other observations

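Within the non-TFH gate Nrp1 and Ikzf2 deviated together (r 0.82 over 12 samples, and 0.59 with the means of replicates 1 to 3 and of 4 to 6 taken off separately), while in the TFH gate r was 0.17. In the TFH gate Nrp1 ran against each of Ikzf4 (-0.61), Tnfrsf18 (-0.70), Lrrc32 (-0.70) and Gpr83 (-0.68). These are descriptions over samples that share libraries, with no test.

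Flicr, the transcript that overlaps Foxp3 on its strand, had a mean of 1.48 ± 0.473 CPM in WT TFH cells and 3.32 ± 1.56 CPM in WT non-TFH cells (SD, n = 6), and 1.10 ± 0.426 and 3.84 ± 0.401 CPM in S1PR4-/- mice. Its share of the reads over the common span was not tested. Il2ra was at 83.8 ± 30.3 and 84.4 ± 20.0 CPM in WT TFH and non-TFH cells and at 128 ± 91.4 and 116 ± 28 CPM in S1PR4-/- cells (SD, n = 6), and between genotypes it was not called in either gate (adjusted p = 0.468 and 0.34, edgeR).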
